A study of Danio rerio with 10 samples.

Results

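Neural ectoderm is the dorsal part of the embryonic ectoderm, from which the brain and spinal cord arise. In vertebrates it forms where signaling by bone morphogenetic proteins (BMPs) is kept low by antagonists from the dorsal organizer, whereas high BMP signaling directs ectoderm to an epidermal fate. Genes of the SoxB1 family of HMG-box transcription factors, among them sox2, sox3 and sox19a in zebrafish, mark and maintain neural progenitors. The cells described here are those that the authors' deposited annotation names neural ectoderm, which were 1729 of 8226 cells (21.0%) in 5 single-cell libraries of zebrafish (Danio rerio) embryos. Each library was compared within itself, neural ectoderm against all other cells. The most similar annotated type, non-neural ectoderm (847 cells, also counted among the other cells), was used as a second reference.

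All groups were wild-type embryos of the AB/TL strain. They received 4sUTP (20 mM), a uridine analogue that enters newly transcribed RNA, by injection at the one-cell stage. They were collected at dome (1 library, labeled replicate B) and at 30% and 50% epiboly (2 libraries each, A and B), and their RNA was converted with iodoacetamide (IAA), so that labeled, zygotic RNA is read through T-to-C changes and unlabeled RNA is maternal. All embryos, in every group, also carried injected GFP, RFP and mCherry mRNAs. Replicate A of both epiboly stages was freed of yolk by hand, and replicate B by shaking, as was dome, so that the replicate letter and the dissociation method cannot be told apart. Barcodes of the dome library bear an A although its title says replicate B, and the title was followed. The labels list 10 samples, and the 5 without IAA were not analysed here. Libraries are pools of embryos, nothing in the labels says that they came from separate clutches, and p-values therefore measure only the spread between these libraries.

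Neural ectoderm held 4191160 unique molecular identifiers (UMIs, each a captured mRNA molecule), from 151541 in dome to 2476882 in 50% epiboly A. A count of 0 in the dome cells still allows 19.8 CPM (counts per 1000000 UMIs), the upper limit set by 3 counts. Neural ectoderm cells were shallower than the other cells of every library, with median UMIs per cell between 1714 and 2449 against between 2154 and 4425.5. One cell barcode occurred in 2 libraries, and it belonged to a neural ectoderm cell. Cells holding 3 or more UMIs of both mCherry species, which mark barcodes shared by cells of different embryos since each embryo received 1 of the 2 species, numbered 0 of 48 in dome, 2 of 90 in 30% epiboly B and 0 of 83 in 50% epiboly B. Among the other cells these numbers were 55 of 1631, 12 of 511 and 2 of 164. In the 2 replicate A libraries neural ectoderm held UMIs of only 1 of the 2 species, so shared barcodes could not be counted there. Intervals given below cover counting error only.

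Neural ectoderm made up a larger share of cells at each later stage. It was 65 of 1855 cells (3.5%, exact 95% interval 2.71 to 4.44) at dome. At 30% epiboly it was 474 of 2420 (19.6%, 18 to 21.2) in replicate A and 94 of 632 (14.9%, 12.2 to 17.9) in replicate B. At 50% epiboly it was 1012 of 3068 (33.0%, 31.3 to 34.7) in replicate A and 84 of 251 (33.5%, 27.7 to 39.7) in replicate B. The share was higher at 50% epiboly in both replicate letters, by 13.4 points in A and 18.6 points in B, and the 2 stages did not overlap (17.2 ± 3.33% against 33.2 ± 0.340%, SD, n = 2 each). The exact permutation test gave p = 0.333 (two-sided), the smallest p that 2 against 2 libraries allow. Without the dome-type and unspecified types the difference was 12.7 points.

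**Figure D1:**
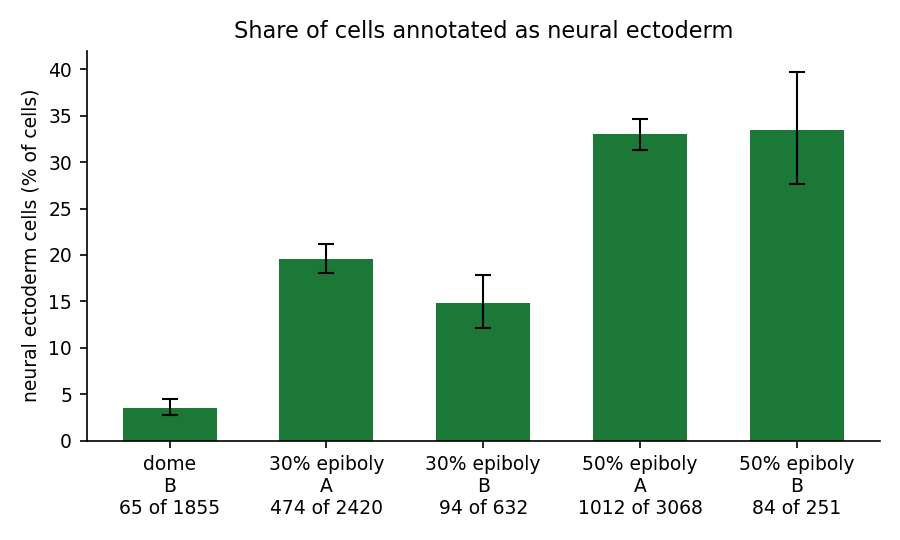
Share of cells annotated as neural ectoderm in each library (y axis, percent of cells; numbers under each bar give neural ectoderm cells of all cells). Error bars are exact 95% binomial intervals; dome lies at 3.5%, the 30% epiboly libraries at 19.6 and 14.9% and the 50% epiboly libraries at 33.0 and 33.5%.

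The annotation was drawn by the authors by clustering these same counts, so expression differences between neural ectoderm and the rest describe how the cells were grouped and were given no test. Levels are CPM of UMIs summed over cells, and differences are on the scale of log2(CPM + 10), which understates the change of low genes. A gene was called different where it was at least 2-fold apart in the same direction in each of the 5 libraries. Of 10123 genes with 50 or more UMIs, 2 were higher by this rule (0.0198%) and 38 were lower (0.375%). In the 4 epiboly libraries alone, without the 65 dome cells, 5 were higher (0.0494%) and 95 were lower (0.938%). Low levels weigh on this count, since a pseudocount of 1 or 50 CPM in place of 10 gave 193 or 7 calls in all.

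SoxB1 genes were among the higher genes of neural ectoderm, but none of them was at least 2-fold above non-neural ectoderm in every library. The level of sox3, one of the markers by which the authors named clusters, was 1379 CPM in neural ectoderm at dome, 2085 and 2232 CPM at 30% epiboly (A and B) and 2332 and 3420 CPM at 50% epiboly. The other cells had 306, 1071, 1083, 1170 and 1544 CPM in the same order, and the mean difference was 1.25 ± 0.50 (log2, SD, n = 5). Non-neural ectoderm held slightly more sox3 than neural ectoderm in every library (1947, 2284, 2349, 2560 and 3538 CPM), so that sox3 alone did not separate the 2 annotated types.

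The level of sox2, a SoxB1 factor that maintains neural progenitors, was 106, 154, 207, 247 and 241 CPM in neural ectoderm and 6.18, 30.1, 55.8, 77.9 and 41.3 CPM in the other cells. Its mean difference was the highest of the called genes (2.09 ± 0.51), and neural ectoderm had the highest sox2 level of all types compared in each of the 5 libraries. Non-neural ectoderm had 93.4, 64.2, 133, 132 and 70.2 CPM, nearest to neural ectoderm at dome. With each cell thinned to 1000 UMIs, 7.69, 10.4, 16.3, 21.3 and 19.5% of neural ectoderm cells had a sox2 UMI (20.0, 23.4, 36.2, 38.9 and 33.3% before thinning), against 0.67, 2.67, 4.41, 7.35 and 4.43% of other cells. In non-neural ectoderm this share was 10.5, 5.29, 10.8, 13.6 and 10.0%, above neural ectoderm at dome and below it in the 4 epiboly libraries. The order rests on few cells at dome (at most 65 neural and 38 non-neural) and in 50% epiboly B (at most 84 and 30). Prechordal plate, endoderm and germ cells, which should lack the gene, gave at most 0.60% in any library (median 2152 to 4690 UMIs per cell).

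The level of sox19a was 640, 992, 870, 1002 and 1254 CPM in neural ectoderm and 147, 507, 437, 546 and 511 CPM in the other cells (1.22 ± 0.49). Of the 4 SoxB1 genes with 50 or more UMIs, 3 were above the other cells in every library, where 5.63% of all genes were. The remaining gene was sox19b, the maternal member, at 26.4, 35.5, 31.0, 24.2 and 23.5 CPM against 93.4, 42.6, 28.5, 18.7 and 25.8 CPM (-0.29 ± 0.70). Its levels overlapped those of the other cells.

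Early neural transcription factors were mixed. Of 21 measured, 6 were above and 6 below the other cells in every library (5.63 and 18.4% of all genes were), and the median difference was 0.18, against -0.14 over all genes. The Zic gene zic2b, which encodes a zinc finger factor, had 535, 1033, 690, 890 and 677 CPM against 177, 588, 399, 596 and 385 CPM (0.90 ± 0.37), and was at the level of non-neural ectoderm (mean difference 0.02 ± 0.22). The forkhead gene foxd3, later a neural crest regulator, was at 72.6, 200, 322, 258 and 165 CPM, against 31.0, 90.2, 116, 84.9 and 93.0 CPM (1.15 ± 0.30).

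Neural factors of low level were also detected. The LIM homeobox gene lhx5 (19.8, 7.48, 43.3, 35.1 and 29.4 CPM) and the forkhead gene foxb1a (13.2, 13.1, 27.9, 38.4 and 41.2 CPM) were above the other cells in all 5 libraries, by 1.14 ± 0.59 and 1.08 ± 0.41. Their dome values rest on 3 and 2 UMIs. On the other side, zic2a, a further Zic gene, was at 0, 8.41, 15.5, 14.9 and 29.4 CPM against 15.8, 50.4, 72.7, 109 and 101 CPM (-1.70 ± 0.34). It was among the 38 lower genes, although its 0 UMIs at dome allow up to 19.8 CPM, above the other cells.

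The Hairy/E(spl)-type repressor her3 was not detected at dome. It had no UMI in the 65 dome cells, 49.5 and 155 CPM at 30% epiboly and 176 and 177 CPM at 50% epiboly, against 1.10, 9.48, 14.2, 17.1 and 23.2 CPM in the other cells. After thinning, 4.35 and 14.0% of neural ectoderm cells at 30% epiboly and 12.4 and 19.5% at 50% epiboly had a her3 UMI. Among the other cells this share was between 0.06 and 1.42%. At 30% epiboly A prechordal plate had more her3 (100 CPM) than neural ectoderm, and in the 3 other epiboly libraries neural ectoderm had the highest level. The iroquois gene irx1b had 0 UMIs at dome, which allows up to 19.8 CPM, and 18.7, 40.2, 35.9 and 41.2 CPM later, against 1.37, 2.54, 7.31, 9.52 and 12.9 CPM.

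**Figure D2:**
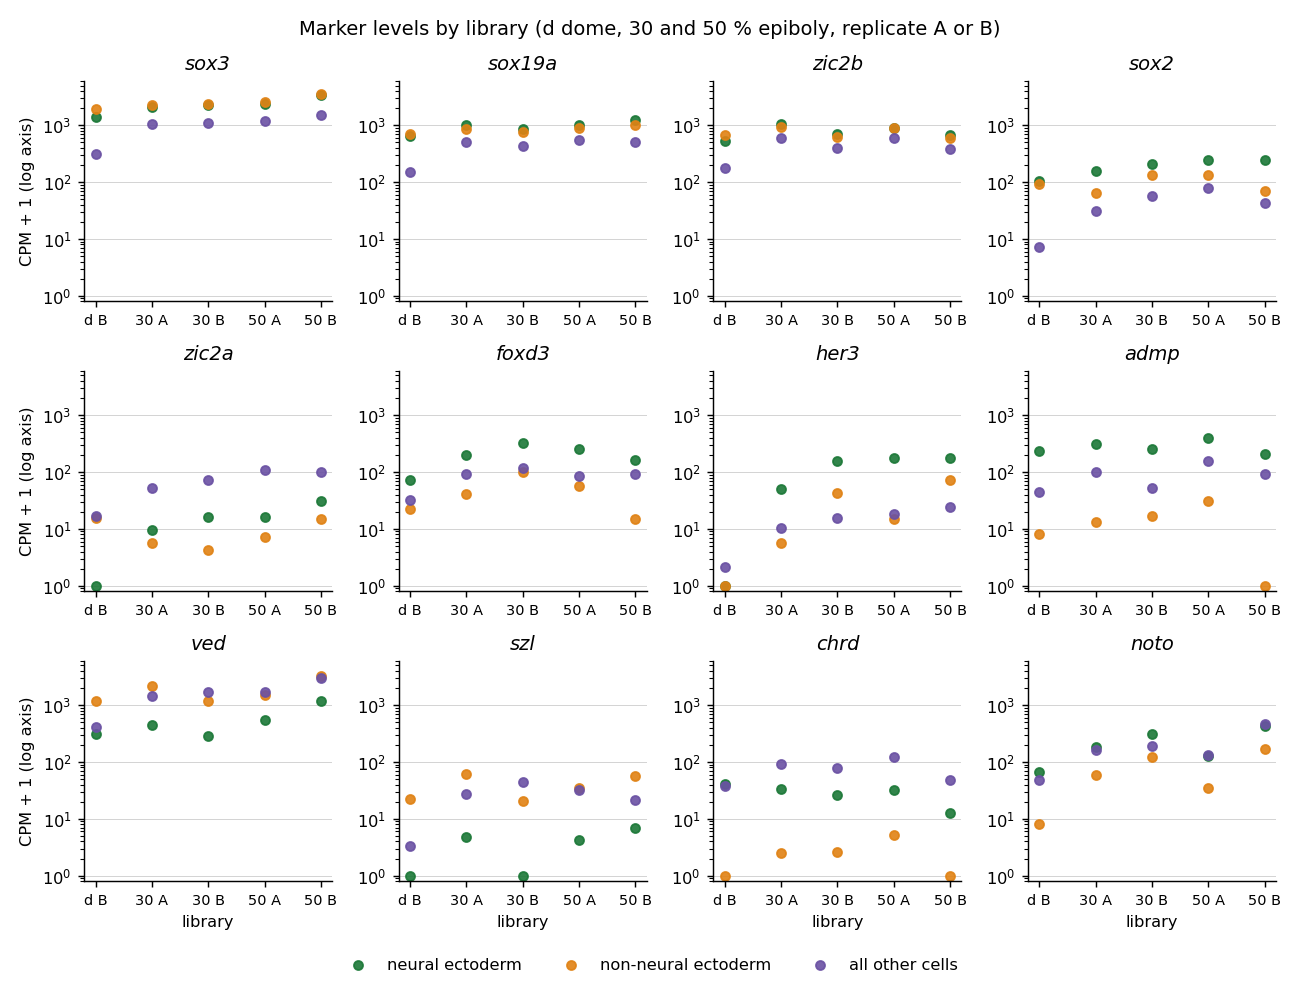
Levels of 12 genes in neural ectoderm (green), non-neural ectoderm (orange) and all other cells (purple, which include non-neural ectoderm) in each library, as CPM + 1 on a log axis; each point is the sum over all cells of that class in 1 library. The 3 classes order differently by gene: sox2, foxd3 and admp are highest in neural ectoderm in all 5 libraries, sox3 is slightly higher in non-neural ectoderm, and ved and szl are lowest in neural ectoderm.

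Genes of the BMP pathway lay below the other cells more often than above. Of 16 measured members of the BMP list, 8 were below and 1 was above in every library (18.4 and 5.63% of all genes were). The median difference was -0.85. The list did not hold the BMP-family ligand admp, which was called higher than all other cells and is described below. The ligand bmp2b was at 0, 20.6, 6.19, 18.2 and 23.5 CPM, against 25.8, 58.7, 76.6, 69.6 and 85.2 CPM in the other cells (-1.69 ± 0.47). Ligands bmp4 and bmp7a were also low at the epiboly stages, and their dome levels were slightly above those of the other cells (19.8 against 19.0 CPM and 99.0 against 67.5 CPM).

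The 3 ventral homeobox repressors, which act downstream of BMP, were lower than in non-neural ectoderm in every library, ved by far the most. The level of ved was 304, 437, 291, 540 and 1201 CPM in neural ectoderm, 1164, 2203, 1181, 1506 and 3286 CPM in non-neural ectoderm and 414, 1434, 1673, 1682 and 3001 CPM in the other cells. It was lower in neural than in non-neural ectoderm in each library, by 1.82 ± 0.37 (log2, n = 5). The related gene vent had 26.4, 58.0, 43.3, 46.0 and 47.1 CPM in neural ectoderm and was lower than in non-neural ectoderm by 1.02 ± 0.32 (log2). The remaining gene, vox, was high in both types, at 264, 425, 644, 333 and 1848 CPM against 295, 601, 823, 498 and 2106 CPM in non-neural ectoderm (lower by 0.35 ± 0.18), and overlapped the other cells.

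The feedback inhibitor szl (sizzled) was nearly absent from neural ectoderm, at 0, 3.74, 0, 3.23 and 5.89 CPM, against 21.6, 59.7, 19.2, 33.6 and 56.2 CPM in non-neural ectoderm. Against non-neural ectoderm, ved and szl were the 2 genes at least 2-fold lower in every library (0.0198% of genes). For szl the dome value rests on 0 UMIs, which allow up to 19.8 CPM, so a 2-fold difference is not established there. The BMP target id3 was also below the other cells in every library (-1.48 ± 0.93). Its relative id1 was above them (798, 1732, 1789, 1172 and 2261 CPM against 368, 1480, 1260, 1038 and 1929 CPM), so the 2 Id genes did not go the same way.

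Against non-neural ectoderm 4 genes were at least 2-fold higher in every library (0.0395%), namely admp, foxd3, chrd and noto, at mean differences of 3.75 ± 0.45, 2.0 ± 0.56, 1.68 ± 0.44 and 1.56 ± 0.36. The level of admp, a BMP-family ligand expressed in the organizer, was 231, 312, 254, 394 and 206 CPM in neural ectoderm and 7.19, 12.2, 16.0, 30.1 and 0 CPM in non-neural ectoderm. It was also the second gene called higher than all other cells (44.2, 101, 51.6, 157 and 90.4 CPM, 1.63 ± 0.48). Over the 5 libraries together notochord cells had more admp (539 CPM) than neural ectoderm (349 CPM), and prechordal plate had 242 CPM.

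The BMP antagonist chrd (chordin) was at 39.6, 32.7, 24.8, 30.7 and 11.8 CPM (the 50% epiboly B value rests on 2 UMIs). This was above non-neural ectoderm (0 to 4.20 CPM) but below the other cells in the 4 epiboly libraries (90.5, 78.9, 120 and 46.5 CPM). Non-neural ectoderm had no chrd UMI at dome (38 cells) or in 50% epiboly B (30 cells). With so few cells a 2-fold difference of chrd is not established in these libraries. The antagonist nog1 (noggin) was almost not detected, at 0, 3.74, 6.19, 3.63 and 5.89 CPM against 23.9, 76.3, 92.7, 142 and 152 CPM (-2.78 ± 0.69). The notochord homeobox gene noto was at 66.0, 180, 306, 126 and 430 CPM and overlapped the other cells (47.0, 159, 187, 133 and 460 CPM). Whether some of these UMIs came from cells or RNA of the adjoining midline was not tested. The prechordal plate marker gsc was at 0 to 15.5 CPM in neural ectoderm, against 56.2 to 266 CPM in the other cells.

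Wnt and FGF genes were mixed. Of 14 Wnt genes 3 were above the other cells in every library and 8 were below, against 5.63 and 18.4% of all genes. The Wnt-responsive factor sp5l was at 277, 362, 607, 740 and 400 CPM against 30.1, 150, 332, 510 and 331 CPM (1.14 ± 1.01), and the secreted inhibitor sfrp1a was at 79.2, 97.2, 198, 115 and 82.4 CPM against 46.5 to 59.9 CPM (0.93 ± 0.51). In contrast, the antagonist dkk1b was at 0, 2.80, 6.19, 3.23 and 5.89 CPM against 14.7, 80.6, 152, 125 and 336 CPM (-3.05 ± 1.14). Its 0 UMIs at dome allow up to 19.8 CPM, above the other cells. The ligand wnt11f2 was lower by 2.94 ± 0.84.

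Of 16 FGF genes 2 were above and 4 below in every library, shares near those of all genes (5.63 and 18.4%). The ligand fgf8a was nearly absent (0 to 6.60 CPM against 21.3 to 90.4 CPM), while the receptor fgfr4 (0.65 ± 0.27) and the FGF-responsive Ets factor etv4 (0.62 ± 0.68) were above the other cells in every library. Of 4 measured posterior and retinoic acid genes, 3 were below in every library. The posterior factor cdx4 was at 0, 8.41, 6.19, 31.5 and 47.1 CPM against 7.97, 86.8, 169, 249 and 315 CPM (-2.37 ± 0.95), and eve1 was lower by 2.22 ± 0.77.

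Enveloping layer, mesoderm and endoderm, and germ cell genes made up 19 of the 38 lower calls. These were 9 of 14, 8 of 20 and 2 of 8 measured genes of these lists, where 0.375% of all genes were called lower. In every library 11 of 14 enveloping layer genes, 16 of 20 mesoderm and endoderm genes and 7 of 8 germ cell genes were below the other cells (18.4% of all genes were), with medians of -2.60, -1.70 and -1.10. The keratin krt4 was at 0 to 36.5 CPM against 72.7 to 766 CPM (-3.94 ± 0.56). The mesendoderm homeobox gene mixl1 was at 0 to 6.46 CPM against 80.9 to 307 CPM (-3.91 ± 0.55), and the T-box gene tbxta, a mesoderm factor, at 19.8, 90.7, 80.5, 97.3 and 82.4 CPM against 92.7, 721, 739, 1019 and 1240 CPM (-2.94 ± 0.73). One gene of the mesoderm and endoderm list was above the other cells in every library, the chemokine receptor cxcr4a, at 297, 850, 430, 773 and 530 CPM against 87.8, 485, 195, 425 and 227 CPM (1.1 ± 0.34). The paper itself gives cxcr4a, with sox3, as an example of zygotic expression in the ectoderm.

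Markers of endoderm and enveloping layer were low, and those of the neighboring ectoderm and mesoderm were present. The 7 non-neural ectoderm markers summed to 317, 509, 334, 631 and 1295 CPM in neural ectoderm, against 527, 2239, 2168, 2570 and 3360 CPM in the other cells. Non-neural ectoderm itself had 1214, 2397, 1270, 1680 and 3637 CPM, below the other cells in 30% epiboly B and 50% epiboly A. Over all libraries ved was higher in ventral margin (2972 CPM) than in non-neural ectoderm (1620 CPM). The keratin krt4 was at 7958 CPM in the enveloping layer and 18.5 CPM in non-neural ectoderm, so the sum is not particular to that type. The 6 markers of margin mesoderm and notochord summed to 502, 1168, 793, 850 and 1118 CPM, against 593, 2814, 2157, 3493 and 3512 CPM. Neural ectoderm was below the other cells in every library for both sums, least so for the mesoderm sum at dome. The endoderm markers sox17, sox32 and gata5 had no UMI in neural ectoderm at dome or 30% epiboly and summed to 4.04 and 5.89 CPM at 50% epiboly. The 5 enveloping layer markers summed to between 58.8 and 172 CPM, against between 233 and 2308 CPM in the other cells. The 4 yolk syncytial layer markers summed to at most 5.89 CPM. Cells annotated as yolk syncytial layer contamination had only 15.4 CPM of them at dome and 0 and 42.8 CPM at 30% epiboly (A and B). In 50% epiboly A they had 234 CPM, so this low sum cannot show that yolk syncytial RNA was absent. Of 18 p53 and stress genes, 10 were below and 1 was above the other cells in every library (18.4 and 5.63% of all genes were). Among those below was the sestrin gene sesn3 (-2.16 ± 1.13), and the gene above was the small heat shock gene hspb1 (0.53 ± 0.49).

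Maternal and cell cycle genes had smaller median differences (-0.44 and -0.07) than enveloping layer, mesoderm and endoderm, and germ cell genes. None of 22 maternal genes was above the other cells in every library and 10 were below (5.63 and 18.4% of all genes were), with a median of -0.44. The maternal linker histone h1m was at 785, 619, 471, 316 and 701 CPM against 1652, 985, 871, 477 and 1245 CPM (-0.80 ± 0.19). Among the maternal activators of the zygotic genome nanog was below in every library (370, 278, 220, 123 and 153 CPM against 1102, 495, 416, 218 and 256 CPM, -0.95 ± 0.34) and pou5f3 was slightly above (0.23 ± 0.21). Of 22 cell cycle genes 5 were above and 8 below in every library (5.63 and 18.4% of all genes were), and the replication helicase subunit mcm6 had the largest difference (277, 390, 235, 493 and 165 CPM against 66.1, 231, 117, 259 and 98.1 CPM, 1.04 ± 0.50).

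**Figure D3:**
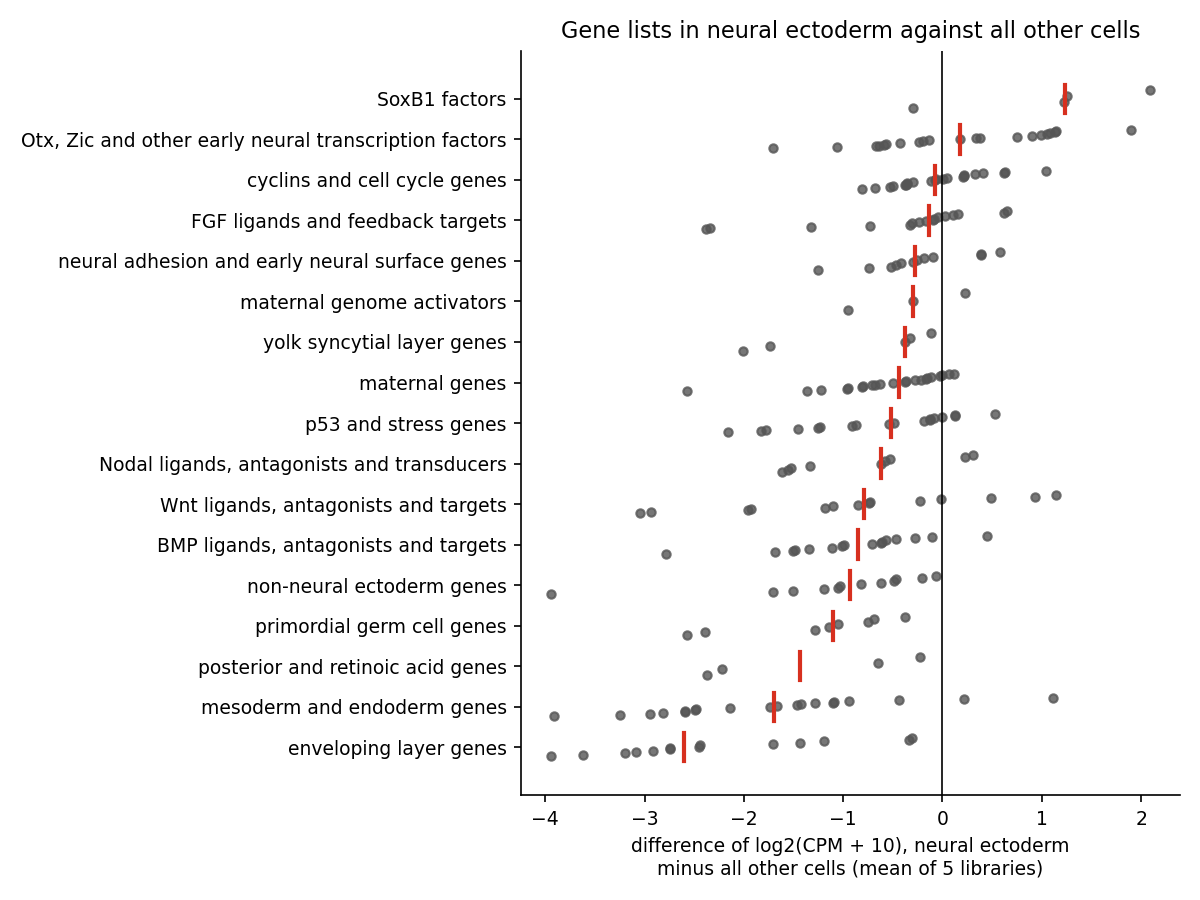
Difference of log2(CPM + 10) between neural ectoderm and all other cells, mean of 5 libraries, for each gene with 50 or more UMIs (points) of 17 gene lists, ordered by list median (red bars). SoxB1 factors have a median of 1.24, early neural transcription factors spread from -1.70 to 1.90, and enveloping layer genes have a median of -2.60.

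Within neural ectoderm marker levels were set against the authors' pseudotime, a developmental ordering of all cells in pseudo-minutes. In 50% epiboly A, sox2 was at 87.7, 194, 258, 306 and 370 CPM in successive bins of 10 pseudo-minutes from 300 to 350, and her3 at 54.0, 125, 195, 225 and 212 CPM. Over the same bins the level of nanog went from 229 to 92.6 CPM. In 30% epiboly A sox2 went from 64.4 CPM (290 to 300) to 318 CPM (330 to 340), and nanog from 425 to 136 CPM. The replicate B libraries had 2 bins each with at least 20 cells (310 to 320 and 320 to 330), and did not all go the same way. In 30% epiboly B sox2 was at 285 and then 216 CPM, her3 at 187 and then 159 CPM and nanog at 187 and then 227 CPM. In 50% epiboly B sox2 was at 135 and then 372 CPM, her3 at 96.6 and then 229 CPM and nanog at 58.0 and then 143 CPM. These bins are descriptions, since pseudotime was itself derived from the counts.

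Changes with stage were tested within neural ectoderm on UMI sums per library with edgeR's quasi-likelihood test, with Benjamini-Hochberg adjustment. The class was drawn from the same counts at every stage, and dome, with 1 library, borrowed the spread of the others. No gene passed an adjusted p of 0.05 in any of the 3 contrasts (0 of 4375, 0%), where 120 genes from dome to 30% epiboly, 162 from 30% to 50% epiboly and 267 from dome to 50% epiboly had an unadjusted p under 0.05. DESeq2 called 0 as well, with 35, 48 and 102 at an unadjusted p under 0.05.

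Among the genes of lowest p were members of the neural and posterior lists. Levels of foxd5, a forkhead factor of the early neural plate, were 39.6 CPM at dome, 186 and 350 CPM at 30% epiboly and 245 and 253 CPM at 50% epiboly (dome to 30%: log2 difference 2.78 ± 0.67, SE, adjusted p = 0.998). The dome value lay below all 4 epiboly libraries. From dome to 50% epiboly her3 had the lowest adjusted p (0.274), and since dome had 0 UMIs its fitted change has no fixed size. From 30% to 50% epiboly eve1, a ventral and posterior homeobox gene, was at 43.0 and 18.6 CPM and then 83.6 and 159 CPM (1.85 ± 0.49, SE, adjusted p = 0.991). The small GTPase gene rab35b had 191 CPM at dome, 62.6 and 58.8 CPM at 30% epiboly and 39.6 and 70.6 CPM at 50% epiboly (dome to 50%: -1.80 ± 0.54, SE, adjusted p = 0.763). None of these differences passed the test. With the replicate letter, which also marks the dissociation, added to the fit (replicate block), foxd5 passed from dome to 30% epiboly (edgeR adjusted p = 0.0229) and from dome to 50% epiboly (adjusted p = 0.0109), as did her3 (adjusted p = 0.0113 and 8.3e-06). Without 50% epiboly A, 50% epiboly B alone stands for its stage, so stage and replicate letter cannot be told apart. The edgeR change from 30% to 50% epiboly was then 1.78 (log2) for ved and 1.88 for the related repressor vox. Both were named after their values were seen. In 50% epiboly A itself vox lay below both 30% epiboly libraries and ved above both.

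The change from 30% to 50% epiboly was also set against that of the other cells. Since the classes were drawn from these same counts, the calls of this contrast describe the grouped cells and are no independent test, and no p is given for a gene. An edgeR interaction term with the library as block called 6 of 10196 genes (0.0588%, adjusted p under 0.05), and all 6 changed less, or in the lower direction, in neural ectoderm. For tbx16, a T-box factor of mesoderm, neural ectoderm had 850 and 384 CPM and then 536 and 447 CPM. The other cells had 1522 and 793 CPM and then 1661 and 1121 CPM, so the difference in change was -0.70 ± 0.14 (log2, SE).

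The Krüppel-like factor klf17 was at 21.5 and 21.7 CPM and then 5.65 and 5.89 CPM in neural ectoderm, against 85.8 and 91.2 CPM and then 125 and 38.7 CPM (-2.37 ± 0.50, SE). Of the rest, cst3 was at 238 and 58.8 CPM and then 178 and 41.2 CPM in neural ectoderm, against 294 and 82.3 CPM and then 414 and 106 CPM. The levels of fscn1a were 572 and 548 CPM and then 478 and 312 CPM, against 861 and 843 CPM and then 1086 and 697 CPM. The protease inhibitor gene cst3, the actin-bundling fascin gene fscn1a and sp5l had differences of -0.91 ± 0.20, -0.61 ± 0.14 and -0.63 ± 0.15 (SE). Neural ectoderm stayed above the other cells for sp5l at both stages. None of the 4 SoxB1 or 22 early neural genes tested was among the 6. DESeq2 called 0 genes for this contrast (26 at an unadjusted p under 0.05, 276 by edgeR), and leaving out 1 library gave between 1 and 7 calls. Of the 6 genes, 0 were among the 1 called without 30% epiboly A, 1 among the 2 without 30% epiboly B, 0 among the 3 without 50% epiboly A and 6 among the 7 without 50% epiboly B. Mesoderm and notochord markers in the other cells summed to 2814 and 2157 CPM at 30% epiboly and to 3493 and 3512 CPM at 50% epiboly, and the part of this changing mix in the 6 calls was not tested.

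The labeled fraction, the share of mRNA molecules estimated to be newly transcribed, did not itself enter the clustering. The classes were drawn from total counts, which include new RNA, so a test between classes is not fully independent of them. The labeled fraction was the deposited estimate, weighted by UMIs over the gene-cell pairs that held at least 3 UMIs. In neural ectoderm 31.5% of mRNA was labeled at dome, 43.0 and 37.5% at 30% epiboly (A and B) and 53.2 and 39.8% at 50% epiboly. The other cells had 13.3, 37.4, 31.5, 50.4 and 32.8%. Neural ectoderm was higher in 5 of 5 libraries, by 18.2, 5.61, 6.07, 2.76 and 7.0 points (mean 7.93 ± 5.97, SD, n = 5).

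An exact sign-flip test (two-sided, libraries as units) gave p = 0.0625, the smallest it can give with 5 libraries, so this test cannot reach 0.05. The unlabeled injected mRNAs, whose labeled fraction is background, gave 2.30% in the dome cells (471 UMIs) and between 0.698 and 0.989% in the epiboly cells of neural ectoderm. Dome carried the largest difference, and the mean without it was 5.36 points.

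**Figure D4:**
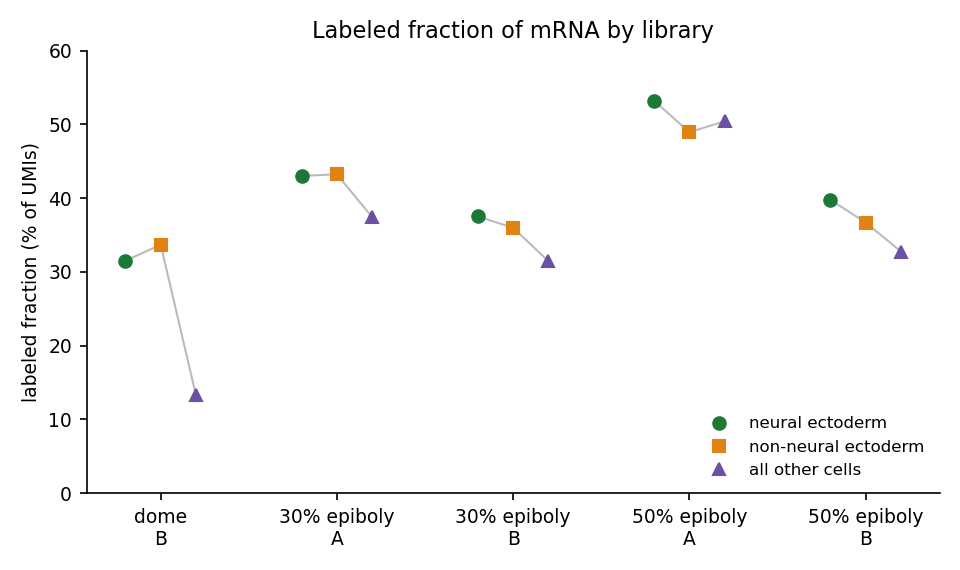
Labeled fraction (y axis, percent of UMIs in gene-cell pairs holding at least 3) of neural ectoderm, non-neural ectoderm and all other cells in each library; gray lines join classes of 1 library. Neural ectoderm is above all other cells in each library, by 18.2 points at dome and by 2.76 to 7.0 points later, and on both sides of non-neural ectoderm.

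The difference remained against cells of the same pseudotime, in pairs of equal UMI number and at equal genes. Total UMIs per cell were not matched. Against other cells of the same pseudotime it was 5.41 ± 2.35 points. By library it was then 8.83 points at dome, 4.31 and 4.17 points at 30% epiboly (A and B) and 2.99 and 6.76 points at 50% epiboly. In all 15 bins of 10 pseudo-minutes with at least 20 cells of each class neural ectoderm was higher. In gene-cell pairs with exactly 3 UMIs it was 6.23 points. With dome-type and unspecified cells left out of the other cells it was 15.3 points at dome. In the epiboly libraries it was then 2.50 and 4.36 points (30%, A and B) and 1.90 and 5.22 points (50%, A and B). Set against the same genes at the same UMI numbers, the differences were 11.4, 2.92, 4.03, 1.89 and 4.52 points (4.95 ± 3.75, SD, n = 5, exact sign-flip p = 0.0625), and without dome the mean was 3.34 points. These strata held between 98.4 and 99.9% of the neural ectoderm UMIs.

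**Figure D5:**
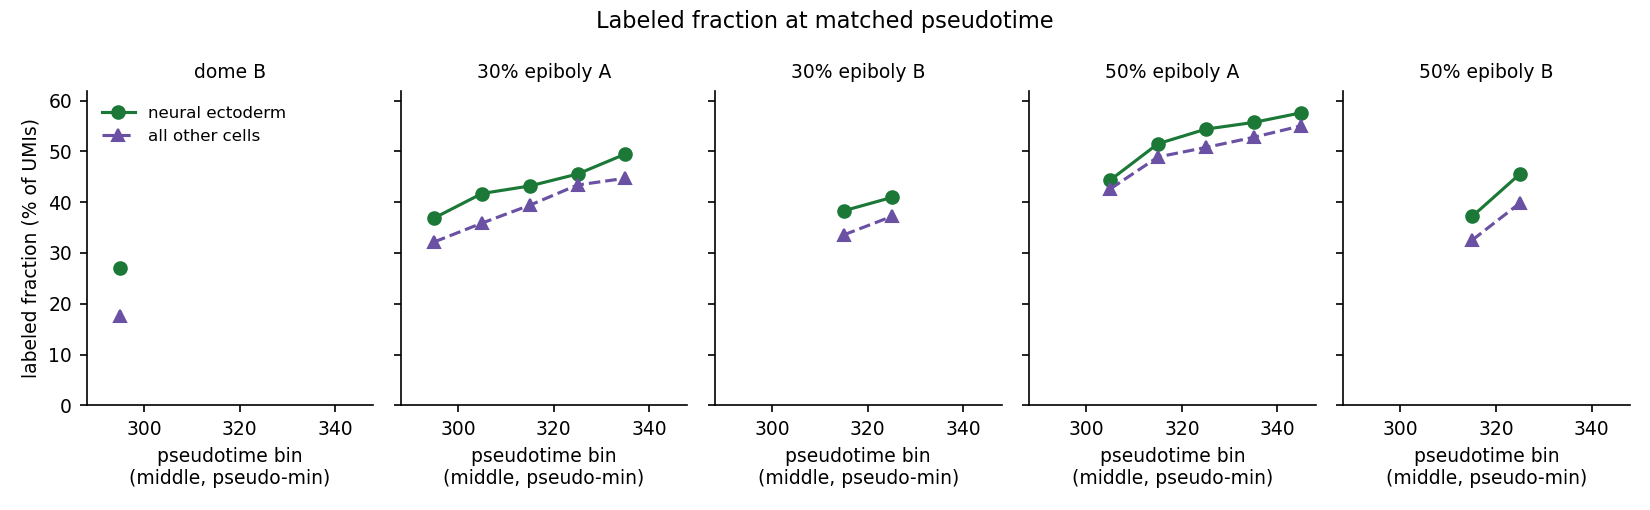
Labeled fraction (y axis, percent of UMIs) of neural ectoderm (circles) and all other cells (triangles) by bin of 10 pseudo-minutes (x axis, middle of the bin), 1 panel per library; bins with fewer than 20 cells of either class are not shown. Neural ectoderm lies above the other cells in all 15 bins, for example 55.7 against 52.8% in the bin from 330 to 340 of 50% epiboly A.

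Against non-neural ectoderm no such difference was resolved. Neural minus non-neural ectoderm was -2.18, -0.20, 1.55, 4.25 and 3.08 points (1.30 ± 2.56, SD, n = 5, higher in 3 of 5, exact sign-flip p = 0.375). Among all annotated types with 5 or more cells, neural ectoderm had rank 2 of 12 at dome, ranks 4 of 14 and 2 of 12 at 30% epiboly and ranks 3 of 14 and 3 of 9 at 50% epiboly. The enveloping layer had rank 1 in 3 of these libraries.

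The labeled fraction of neural ectoderm was 40.3 ± 3.90% at 30% epiboly and 46.5 ± 9.50% at 50% epiboly (SD, n = 2 each), a difference of 6.21 points (exact permutation p = 0.667). Within replicate letters it was higher at 50% epiboly by 10.2 points in A and 2.25 points in B. Without 50% epiboly A the difference between stages was -0.51 points, but this sets 50% epiboly B alone against both 30% epiboly libraries. Replicate A was higher than B at both stages (43.0 against 37.5% and 53.2 against 39.8%), so the replicate letter enters that value.

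Across single genes the difference was broad and small. Of 506 genes with 30 or more UMIs behind each fraction in at least 4 libraries, 425 (84.0%) had a higher mean labeled fraction in neural ectoderm, with a median of 3.83 points. Dome weighs on these means. Among genes with 30 or more UMIs in the library, 81.1% were higher at dome and 65.2, 70.5, 58.5 and 71.4% in the epiboly libraries. The median differences were 7.18 points at dome and then 2.42, 2.80, 1.02 and 3.26 points. None passed limma's adjusted p of 0.05 (0%), and 159 had an unadjusted p under 0.05. Without dome, 800 genes could be tested, of which 22 were higher (2.75%) and 2 lower (0.25%) in neural ectoderm at an adjusted p under 0.05.

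The chromatin protein gene hmgb2a was among the leading genes with and without dome. In neural ectoderm 37.9, 46.1, 43.4, 54.4 and 37.0% of its mRNA was labeled, against 24.5, 38.0, 34.2, 46.5 and 25.6% in the other cells, a difference of 9.98 ± 1.23 points (SE, limma adjusted p = 0.071, between 0.027 without dome and 0.203 over the alternatives). Multiplying each level by its labeled fraction splits it approximately into new and old mRNA. The unlabeled part can include new mRNA, since single-cell estimates can be too low. Unlabeled hmgb2a was at similar levels in both classes (4428 against 4291 CPM in 30% epiboly A, 4995 against 4779 CPM in 50% epiboly A), and labeled hmgb2a was higher in neural ectoderm (3788 against 2634 CPM and 5969 against 4161 CPM).

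The other leading genes by the named-gene rule were mphosph10, which encodes a ribosomal RNA processing factor (15.5 ± 2.0 points, SE, adjusted p = 0.071), and gtf2h5, which encodes a TFIIH subunit (9.86 ± 1.51 points, adjusted p = 0.071). At the other end stood stm (-4.69 ± 1.21), eef1b2, which encodes an elongation factor subunit (-4.23 ± 1.33), and the apolipoprotein gene apoeb (-2.96 ± 0.99, adjusted p between 0.092 and 0.122 for these 3). The last is nearly all new in both classes, with 89.8 to 96.9% labeled in neural ectoderm and 93.3 to 98.2% in the other cells.

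Of the genes called without dome, the following were named after their values were seen. The nucleolar gene npm1a (nucleophosmin) had 41.0, 33.3, 57.0 and 37.6% labeled in the epiboly libraries against 32.7, 25.0, 49.8 and 29.1% (8.09 ± 0.71 points, SE, limma adjusted p = 0.027), and cdca7a, a cell division gene, had 42.5, 33.0, 62.5 and 50.7% against 30.6, 20.1, 51.4 and 31.4% (13.8 ± 1.62 points, adjusted p = 0.038). Both genes had a higher labeled fraction in neural ectoderm in every epiboly library.

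The 2 genes with a lower fraction were ctsla, a cathepsin gene (-6.95 ± 1.00 points, adjusted p = 0.038), and fscn1a (-23.3 ± 2.81 points, adjusted p = 0.038). At dome both went the other way, ctsla with 8.90 against 5.28% labeled (549 UMIs in neural ectoderm) and fscn1a with 34.6 against 31.0% (20 UMIs). With dome included the difference of ctsla was -4.83 ± 2.07 points (limma adjusted p = 0.176). For fscn1a 49.9, 26.9 and 68.1% was labeled in 30% epiboly A and B and 50% epiboly A, against 72.1, 56.5 and 86.1% in the other cells. The library 50% epiboly B, with 11 UMIs behind the value, was left out of the fit of this gene. Unlabeled fscn1a differed little between the classes (287 against 240 CPM, 400 against 367 CPM and 153 against 151 CPM), while labeled fscn1a was lower in neural ectoderm (285 against 621 CPM, 148 against 476 CPM and 325 against 936 CPM). These products use pairs with 3 or more UMIs for the fraction and all UMIs for the level. Their unlabeled part can likewise include new mRNA.

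The neural markers were mostly labeled. For sox3 83.8, 87.4, 94.9, 88.5 and 93.1% of neural ectoderm mRNA was labeled, against 87.4, 89.5, 95.1, 90.3 and 95.9% in the other cells. For sox19a the fraction was between 86.5 and 97.0%, and for zic2b between 87.5 and 95.8%. The higher overall labeled fraction of neural ectoderm was thus not seen in sox3, whose fraction was slightly lower than in the other cells in all 5 libraries. At least 83.8% of sox3 mRNA was labeled in both classes, and whether this high level limits a difference was not tested. The partly labeled pou5f3 had 49.5, 63.0, 57.1, 75.4 and 70.2% labeled against 20.0, 57.3, 47.4, 73.2 and 56.6%, higher in 5 of 5 libraries (limma adjusted p = 0.122). Partly labeled genes did not all go this way. The cyclin gene ccng1 was lower in every library (mean -3.82 points), and sall4 was higher in some libraries and lower in others.

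Fully maternal h1m had at most 0.933% labeled in neural ectoderm and at most 0.783% in the other cells. The proliferation gene mki67 had 37.2, 35.4, 38.4, 52.7 and 56.1% labeled against 15.8, 31.7, 33.4, 47.5 and 34.8%. Its 50% epiboly B value rests on 41 UMIs.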

How the data were processed

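Cells of 5 IAA libraries were analysed from the deposited tables. The deposited counts are whole UMI counts per gene and cell (20920 genes), and the deposited labeled fraction (0 to 1) is the GRAND-SLAM estimate of the authors per gene and cell. Per the study's methods, Drop-seq tools made expression matrices from Bowtie2 alignments to Ensembl Zv10 (cells with few genes removed), and GRAND-SLAM used GRCz11, the build in the submitters' notes. Which of both wrote the deposited counts was not given in the sources used here. The deposited pseudotime score and the cell types are those of the authors. A total of 8 further cell columns was not used. Injected mRNAs (0.534% of UMIs) were left out of totals and tests. No source used here describes a removal of doublets, and no doublets were removed.

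UMIs were summed per library and class. Tests used edgeR 4.0.16 (filterByExpr, TMM, quasi-likelihood), limma 3.58.1 with trend, DESeq2 1.42.0 as alternative, and exact tests over libraries, with an FDR of 5%. Fractions used pairs with at least 3 UMIs, and gene fractions at least 30 UMIs. Intervals of shares are exact binomial (scipy 1.17.1). The scripts were tested on simulated data. Members and gene lists were chosen with earlier results of these data known. Named were members of the lists, called genes of highest (15) and lowest (10) mean difference, and for each test the 8 genes of lowest p each way (3 where none passed). Alternatives covered pseudocount, filters, scaling, tool, comparison cells, UMI minimum, replicate block and leaving out each library; leaving out libraries for the share of cells was chosen after seeing the data. The results of some named genes are not reported here.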

Additional observations from a re-analysis of the deposited data

Results flagged for a closer look

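In 3 cases the dome library lay far from the 4 epiboly libraries of the same comparison, by Dixon's test of the gap against the range (chance marks about 1 group in 20, and dome is the only library of its stage). The labeled fraction of neural ectoderm exceeded that of the other cells by 18.2 points at dome and by at most 7.0 points elsewhere. Against other cells of the same pseudotime the excess was 8.83 points at dome and at most 6.76 points elsewhere. At equal genes and UMI numbers the dome difference was 11.4 points, against at most 4.52 points. The difference of sox3 at dome was 2.14 (log2), above the mean of 1.25. The change from 30% to 50% epiboly differed between neural ectoderm and other cells by the edgeR interaction test for rnd1b (-1.25), tbx16 (-0.70), klf17 (-2.37), cst3 (-0.91), fscn1a (-0.61) and sp5l (-0.63), all on the log2 scale. The classes compared were drawn from these same counts.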

How the results depend on the processing

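The count of 40 genes at least 2-fold apart in every library became 193 with a pseudocount of 1 CPM, 7 with 50 CPM and 82 when dome-type and unspecified cells were left out of the comparison, and lay between 41 and 100 with 1 library left out (100 without dome). Stage changes within neural ectoderm were called for 3 genes (dome to 30%), 2 (30% to 50%) and 2 (dome to 50%) with no filter on low counts (14845 genes tested in place of 4375). Leaving out 1 library gave 0 to 1, 0 to 10 and 0 to 3 calls, with 10 and 3 reached without 50% epiboly A. The interaction gave 0 calls with DESeq2 and 1 to 7 with 1 library left out, which held 0 of the 6 genes without 30% epiboly A or 50% epiboly A and 1 without 30% epiboly B. The labeled fraction of single genes gave 8 calls with 100 or more UMIs behind each fraction and 0 to 24 with 1 library left out (24 without dome), with 227 and 800 genes tested in place of 506. The cause of these shifts was not tested.

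Adding the replicate letter to the stage fit (replicate block) gave 2 calls from dome to 30% epiboly (foxd5 and her3), 0 from 30% to 50% epiboly and 4 from dome to 50% epiboly. Letters deviated together with a correlation of 0.126 over 2623 genes, and with 2 pairs this does not show that letters pair the samples.

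With 1 library left out, the labeled fraction difference ranged from 5.36 to 9.23 points, at equal genes from 3.34 to 5.72, against non-neural ectoderm from 0.56 to 2.17 and between stages from -0.51 (without 50% epiboly A) to 12.9. The share difference ranged from 13.6 to 18.4 points. Differences in low genes at dome are limited by its depth.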
